A study of Homo sapiens with 2 samples.

Results

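The levels of 10 genes of the NF-κB system were compared between STRAP knockout and unedited neuroblastoma cells. They encode the 5 NF-κB subunits (RELA, RELB, REL, NFKB1 and NFKB2), 2 proteins of the IκB family (NFKBIA and NFKBIZ), the feedback enzyme TNFAIP3, and 2 genes induced through the pathway (TNFAIP2 and ICAM1). The genes were chosen by symbol, with earlier results of these data known, and all 10 were found among the 62573 rows of the expression table. The RNA came from SK-N-AS (AS), an established human neuroblastoma cell line without MYCN amplification. AS STRAP KO cells carry a CRISPR-Cas9 edit of STRAP, a WD repeat protein first described as a partner of TGF-β receptors, and were grown from a single sorted cell. AS WT cells are the unedited parental culture, so that the edit and the choice of 1 clone cannot be told apart. Both were untreated, grown in serum, and measured by RNA-seq of poly A selected RNA, with 1 sample and 1 column of values each, called a library below. The methods state biological replicates for the experiments in general, and the sources used here do not say whether several entered a column.

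NF-κB is a family of transcription factors that act as pairs of subunits. In resting cells the pairs are held in the cytoplasm by IκB proteins. Signals from cytokine and Toll-like receptors activate the IKK complex, which marks IκB for destruction and frees the pairs to enter the nucleus. A second, slower route runs through the kinase NIK, processing of the NFKB2 product and RELB. The freed factors switch on their own inhibitors, NFKBIA and TNFAIP3 among them, together with adhesion molecules, cytokines and survival genes. In neuroblastoma, as in other cells, mRNA levels of these genes are one readout of the pathway, but they do not measure the location or DNA binding of the proteins.

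Several of these genes are known to be bound by NF-κB at short κB sites, so the reference sequence in front of them was searched. RefSeq windows that reach 250 bases before and 50 bases after a transcription start were on hand for 9 of the 10 genes, all but RELB. The search used the 10-base κB consensus on both strands and, in addition, the 9-base core GGAANTTCC, which overlaps it and was added after the windows had been seen. The consensus was present in 6 of the 9 genes and the core in 5 of the 9. Among all 27305 genes with windows of this length, 7.09% held the consensus and 1.16% the core. Some genes have several windows, and 8 of the 14 windows of the 9 genes held the consensus, against 5.91% of all 35116 windows. ICAM1 held the core only, and RELA and TNFAIP2 held neither. The genes were chosen as part of the NF-κB system, so the contrast with all genes describes them and is not a test. A match describes the letters of the reference and is not evidence of binding in these cells.

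**Figure D1:**
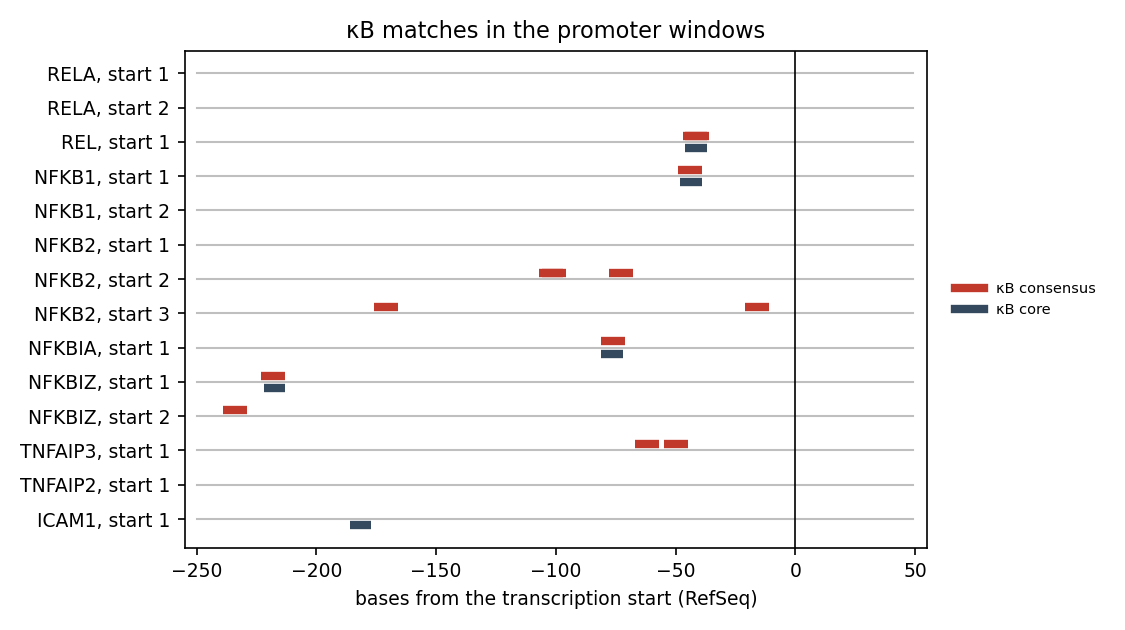
Matches to the κB consensus (red) and to the κB core (dark blue) in the RefSeq windows of 9 NF-κB genes. The horizontal axis gives bases from each transcription start, and each line is 1 window of 300 bases. The match of NFKBIA begins at -81, those of REL and NFKB1 at -47 and -49, and that of ICAM1 at -186.

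For each of the 7 genes with a match, 1 stretch is printed to show the letters that the search met. The stretches were picked for the match, so their likeness is fixed by the search, and further matches in NFKB2 and NFKBIZ are not printed. Sequences are from RefSeq on GRCh38.p14, run 5′ to 3′ along the strand of the gene, and have the matched bases in capitals. Where an annotated exon overlaps, the stretch is limited to 30 bases. NFKBIA (minus strand, chr14:35404786-35404865), REL (plus strand, chr2:60881518-60881547), NFKB1 (plus, chr4:102501300-102501329), the second start of NFKB2 (plus, chr10:102394462-102394491), the first start of NFKBIZ (plus, chr3:101827757-101827786), TNFAIP3 (plus, chr6:137867188-137867217) and ICAM1 (plus, chr19:10270899-10270977) read as follows.
NFKBIA: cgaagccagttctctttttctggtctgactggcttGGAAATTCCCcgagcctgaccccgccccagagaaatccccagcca
REL: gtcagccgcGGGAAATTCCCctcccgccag
NFKB1: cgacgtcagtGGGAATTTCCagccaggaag
NFKB2: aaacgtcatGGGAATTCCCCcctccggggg
NFKBIZ: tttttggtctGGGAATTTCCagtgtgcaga
TNFAIP3: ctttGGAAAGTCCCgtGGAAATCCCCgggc
ICAM1: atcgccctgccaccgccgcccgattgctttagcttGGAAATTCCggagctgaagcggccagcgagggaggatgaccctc

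Genes were compared by their FPKM in AS STRAP KO divided by that in AS WT. FPKM scales the reads of a gene by its transcript length and by the mapped reads of the library, so it allows levels of different genes to be set side by side. Since each condition has 1 column of values, differences could not be set against a spread between replicates and were not tested. A gene was called higher or lower at a ratio of at least 2-fold, counted over the 13527 rows that reached 1 FPKM in AS STRAP KO, in AS WT or in both. All 10 NF-κB genes passed this filter in both libraries. Intervals given beside ratios cover counting error only. They are exact 95% binomial intervals (Clopper-Pearson) on read numbers estimated from the FPKM, the shortest protein-coding transcript and a depth of 26.7 reads per 1000 bases at 1 FPKM in AS STRAP KO and 26.3 in AS WT.

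The NF-κB genes were for the most part higher in the knockout cells. By any amount, 9 of the 10 were higher and 1 was lower, while 50.1% of all rows were higher. At least 2-fold, 2 of the 10 were higher, against 8.31% of all rows, and 0 were lower, against 10.6% of all rows. At least 1.5-fold, a threshold added after the values were seen, 7 were higher, against 17.6% of all rows. The median log2 ratio of the 10 genes was 0.79, and that of all 13527 rows was 0.00 with quartiles of -0.43 and 0.41. Their ratios ran from -0.05 for RELA to 1.41 for ICAM1. The genes were chosen with earlier results known, so the contrasts with all rows describe them and are not a test.

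**Figure D2:**
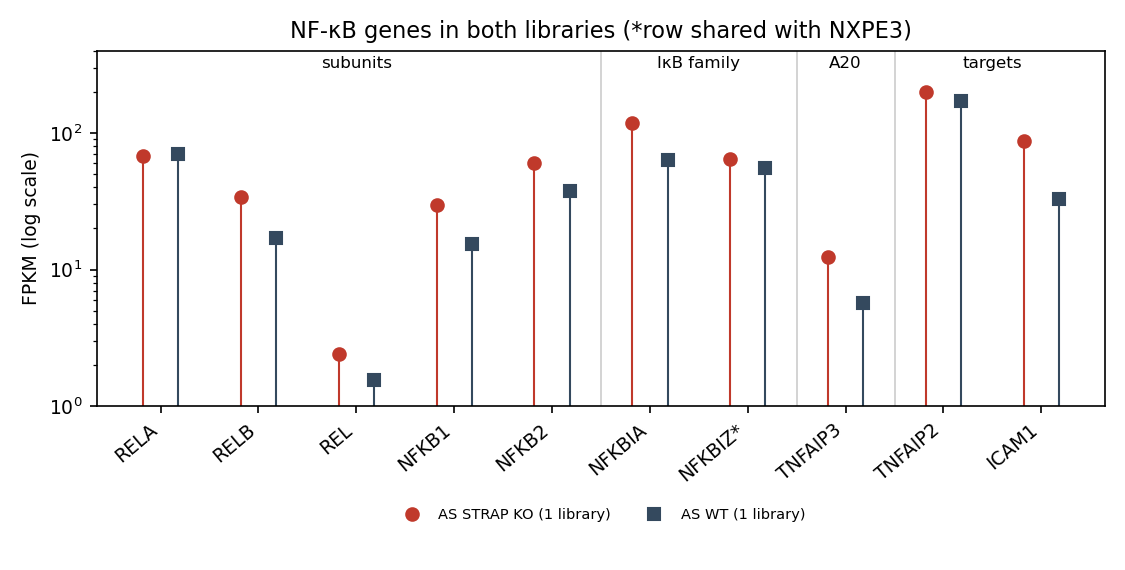
FPKM on a log scale of the 10 NF-κB genes in the AS STRAP KO library (red circles) and the AS WT library (dark squares), 1 value each. The red circle is the higher one for every gene except RELA, at 68.2 FPKM in AS STRAP KO and 70.7 FPKM in AS WT.

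Of the subunits, RELA was the most abundant in both libraries and was nearly level between them. RELA (ENSG00000173039.20, chromosome 11 of GRCh38, 65653599 to 65663090, minus strand) encodes the strongly activating partner of the classical pair. It had 68.2 FPKM in AS STRAP KO and 70.7 FPKM in AS WT, a log2 ratio of -0.05 with an interval of -0.12 to 0.01. This was the only gene of the 10 that was not higher as deposited, and its sign turned with the scaling, at 0.05 when both libraries were rescaled to a common total.

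The partner of the classical pair was higher. NFKB1 (ENSG00000109320.14, chromosome 4, 102501330 to 102617302, plus strand, 24 exons in its main transcript) encodes a precursor whose shorter product pairs with RELA. It had 29.9 FPKM in AS STRAP KO and 15.4 FPKM in AS WT, a 1.94-fold difference (log2 ratio 0.95, interval 0.86 to 1.05). The ratio fell just short of 2-fold.

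Both subunit genes of the slower route were higher as well. RELB (ENSG00000104856.15, chromosome 19, 45001461 to 45038192, plus strand) encodes the activating subunit that pairs mainly with the NFKB2 product. RELB had 33.8 FPKM in AS STRAP KO and 17.1 FPKM in AS WT, 1.97-fold higher (log2 ratio 0.98, interval 0.85 to 1.11), the largest ratio among the subunits. NFKB2 (ENSG00000077150.21, chromosome 10, 102394110 to 102402524, plus strand) encodes the precursor that NIK signaling processes. NFKB2 had 59.8 FPKM in AS STRAP KO and 37.6 FPKM in AS WT, 1.59-fold higher (log2 ratio 0.67, interval 0.60 to 0.74). The NFKB2 level stayed above that of NFKB1 in each library.

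REL was expressed at a low level. It encodes c-Rel, a subunit best known from lymphocytes (ENSG00000162924.16, chromosome 2, 60881491 to 60931612, plus strand). REL had 2.41 FPKM in AS STRAP KO and 1.55 FPKM in AS WT, a log2 ratio of 0.64. It rests on the fewest reads of the 10 genes, an estimated 142 to 712 in AS STRAP KO and 89.6 to 449 in AS WT depending on the transcript, and its counting interval of 0.24 to 1.03 was the widest.

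The unequal ratios gave the libraries a different subunit makeup. The summed FPKM of the 5 subunit genes was 194 in AS STRAP KO and 142 in AS WT. RELA made up 35.2% of this sum in AS STRAP KO and 49.7% in AS WT. NFKB2 made up 30.8% in AS STRAP KO and 26.4% in AS WT. RELB made up 17.4% in AS STRAP KO and 12.0% in AS WT, and NFKB1 15.4% in AS STRAP KO and 10.8% in AS WT. REL was near 1% in both, at 1.24% in AS STRAP KO and 1.09% in AS WT. A common scaling of a library cancels in these shares, so they do not depend on how the libraries were scaled. They describe mRNA, and the amounts of protein were not measured here.

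**Figure D3:**
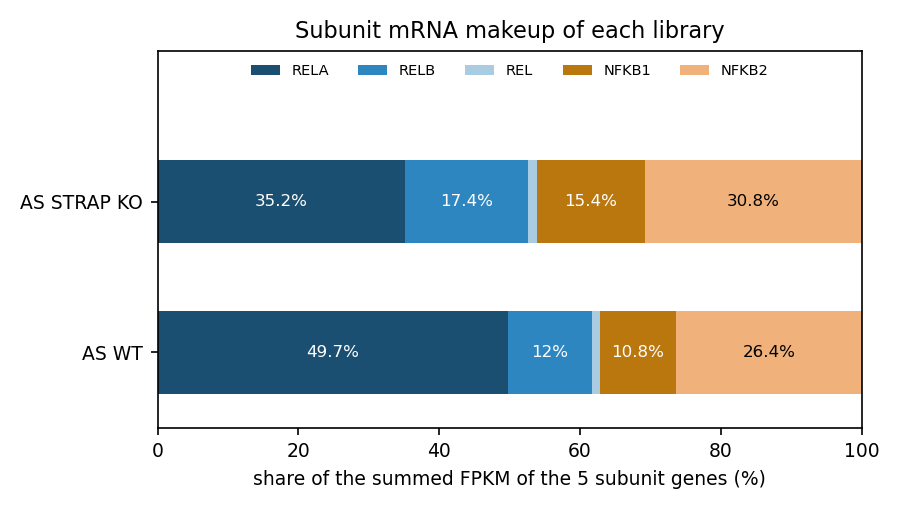
Share of each subunit gene, in percent of the summed FPKM of all 5, in AS STRAP KO (upper bar) and AS WT (lower bar). RELA takes 35.2% in AS STRAP KO and 49.7% in AS WT, and the unlabelled narrow segment is REL, near 1% in each.

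Among the inhibitors, the classical IκB gene was higher and the atypical one was closer to level. NFKBIA (ENSG00000100906.12, chromosome 14, 35401079 to 35404749, minus strand, 6 exons) encodes IκBα, which holds RELA pairs in the cytoplasm and is remade when they are active. It had 119 FPKM in AS STRAP KO and 62.9 FPKM in AS WT, 1.89-fold higher (log2 ratio 0.92, interval 0.83 to 1.01). NFKBIA stood below RELA in AS WT and above it in AS STRAP KO. Its FPKM was 1.74 times that of RELA in AS STRAP KO and 0.889 times in AS WT. NFKBIZ encodes a nuclear IκB protein that helps NF-κB at a subset of targets. Its row is shared with the overlapping gene NXPE3, so the level cannot be assigned to NFKBIZ alone. The row had 64.6 FPKM in AS STRAP KO and 55.1 FPKM in AS WT, a log2 ratio of 0.23.

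TNFAIP3 (ENSG00000118503.18, chromosome 6, 137867214 to 137883314, plus strand) was one of the 2 genes at least 2-fold higher. It encodes A20, a ubiquitin-editing enzyme that turns off signaling to IKK and is itself an NF-κB target. It had 12.3 FPKM in AS STRAP KO and 5.65 FPKM in AS WT, 2.18-fold higher, a log2 ratio of 1.12. The counting interval of 0.97 to 1.27 reaches just below 2-fold. TNFAIP3 ranked 9 among the 10 genes by level in each library.

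The remaining genes are induced by cytokines through NF-κB, and they differed from each other. ICAM1 (ENSG00000090339.9, chromosome 19, 10271093 to 10286615, plus strand) encodes the intercellular adhesion molecule that leukocyte integrins bind. It had 87.3 FPKM in AS STRAP KO and 33.0 FPKM in AS WT, 2.65-fold higher (log2 ratio 1.41, interval 1.30 to 1.51), the largest ratio of the 10. By level ICAM1 ranked 3 among the 10 genes in AS STRAP KO and 6 in AS WT. TNFAIP2 (ENSG00000185215.11, chromosome 14, 103121476 to 103137439, plus strand) encodes a TNF-induced protein of the exocyst family that takes part in membrane protrusions. It was the most abundant of the 10 in each library, at 198 FPKM in AS STRAP KO and 170 FPKM in AS WT, with a log2 ratio of 0.22 (interval 0.20 to 0.25). TNFAIP2 thus lay inside the middle range of all rows, while ICAM1 lay well above it.

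**Figure D4:**
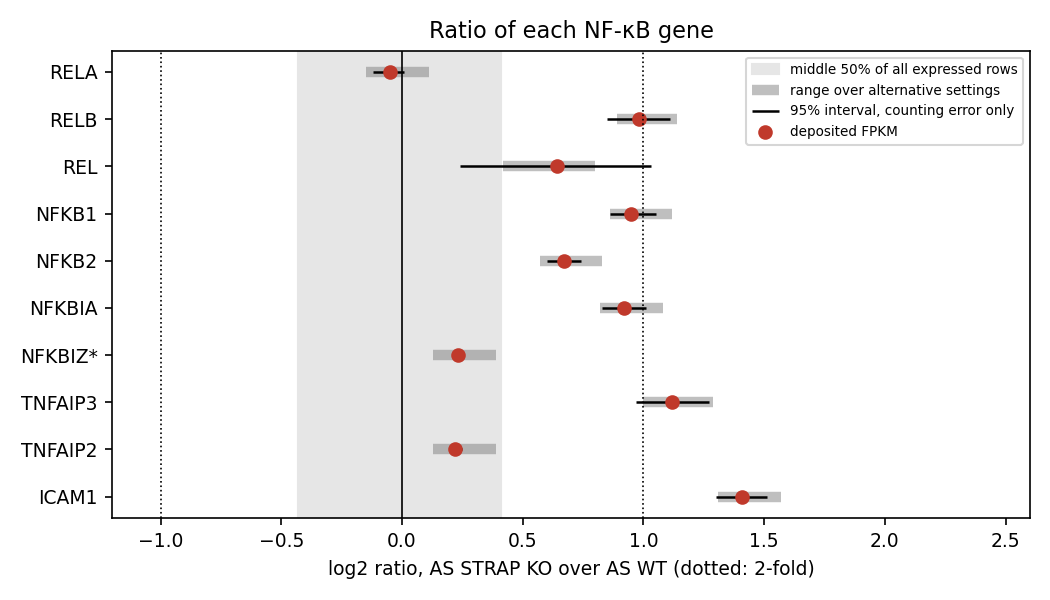
Log2 ratio (AS STRAP KO over AS WT) of each gene (red points), with the 95% counting interval (black lines, not drawn for the row shared with NXPE3) and the range over alternative settings (gray bars). The shaded band runs from -0.43 to 0.41, the middle 50% of all expressed rows, and RELA, NFKBIZ and TNFAIP2 lie within it while the other 7 lie above it.

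The count of 2 was sensitive to scaling because RELB, NFKB1 and NFKBIA lay close to 2-fold. Rescaled to a common total, 5 of the 10 were at least 2-fold higher, where 1597 of 14473 rows (11%) were higher and 1501 (10.4%) lower. Over all alternative settings the ratio of each gene other than RELA stayed above 0 where it could be computed, with ranges of 0.89 to 1.14 for RELB, 0.86 to 1.12 for NFKB1, 0.82 to 1.08 for NFKBIA, 1.00 to 1.29 for TNFAIP3 and 1.31 to 1.57 for ICAM1.

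The rest of the pathway was described by 5 lists, grouped by role and also chosen with earlier results of these data known. Of the 84 listed genes, 67 passed the filter, of which 13 were higher and 2 lower by 2-fold or more, against 8.31% and 10.6% of all rows. Of the 13, TLR4, TRAF1, IL6, CSF2 and PTGS2 reached 1 FPKM in AS STRAP KO only, and of the 2 lower ones CCL2 did so in AS WT only, so that these 6 had to differ to pass. Among the 61 genes that reached 1 FPKM in both libraries, 8 were higher and 1 lower, where 4.87% of all rows were higher and 5.74% lower. The other IκB genes differed in direction. NFKBIE, which encodes IκBε, an inhibitor that is itself induced by NF-κB, had 20.6 FPKM in AS STRAP KO and 8.74 FPKM in AS WT (log2 ratio 1.23). BCL3, a nuclear IκB protein that binds pairs of the NFKB1 or NFKB2 products, had 22.9 FPKM in AS STRAP KO and 51.4 FPKM in AS WT (log2 ratio -1.16). BCL3 was thus the only expressed gene of the IκB family at least 2-fold lower. NFKBIB was listed at 0 in both libraries and is not read.

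Genes of the IKK complex, of related and upstream kinases and of their adaptors all stayed within 2-fold. The list held 12 genes, of which 0 were 2-fold higher and 0 lower, against 8.31% and 10.6% of all rows. Their median log2 ratio was 0.13, with a range of -0.48 to 0.80. The lowest was IKBKB, the catalytic subunit IKKβ, at 87.5 FPKM in AS STRAP KO and 122 FPKM in AS WT. The highest was TAB2, an adaptor of the kinase TAK1, at 24.3 FPKM in AS STRAP KO and 14.0 FPKM in AS WT. MAP3K14, which encodes NIK, had 4.66 FPKM in AS STRAP KO and 4.88 FPKM in AS WT. Of 13 expressed regulators of ubiquitin editing and feedback, 0 were 2-fold higher and 0 lower, against 8.31% and 10.6% of all rows. Their median was 0.19, and ITCH and PDLIM2 were read from rows shared with other genes. For lists of this size, 0 is not read as a trait of the genes.

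Among receptors and adaptors, 5 of 21 were higher by 2-fold or more and 0 were lower, against 8.31% and 10.6% of all rows, with a median log2 ratio of 0.27. The higher ones numbered 3 of 19 with at least 1 FPKM in both libraries, where TLR4 and TRAF1 dropped out and the median was 0.11, 2 with 1 FPKM added to each value, and 1 with at least 5 FPKM in 1 library. Of all rows, 4.87%, 5.32% and 5.72% were higher under these settings in turn. TNFRSF12A, the receptor for the cytokine TWEAK, was the abundant one of these, at 290 FPKM in AS STRAP KO and 131 FPKM in AS WT (log2 ratio 1.15). TLR2, a receptor for bacterial lipoproteins, had 2.95 FPKM in AS STRAP KO and 1.24 FPKM in AS WT. TRAF1, an adaptor that is an NF-κB target, had 1.01 FPKM in AS STRAP KO and 0.390 FPKM in AS WT. TLR4, the endotoxin receptor, stands in a row shared with AL160272.2 and had 1.94 FPKM in AS STRAP KO and 0.0297 FPKM in AS WT. The TLR4 value in AS WT is an estimated 2.15 to 9.72 reads, so that its log2 ratio of 6.03 has a counting interval of 4.26 to 9.20. TLR3, a receptor for double-stranded RNA, completed the 5 with a log2 ratio of 1.09 and was named after its value was seen. The TNF receptor gene TNFRSF1A was nearly level, at 120 FPKM in AS STRAP KO and 112 FPKM in AS WT.

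Target genes beside ICAM1 and TNFAIP2 lay on both sides, though unevenly. By any amount, 14 of the expressed ones were higher and 4 lower, while 50.1% of all rows were higher. Of 32 listed, 18 passed the filter, of which 7 were higher and 1 was lower by 2-fold or more, against 8.31% and 10.6% of all rows, with a median log2 ratio of 0.76. With at least 1 FPKM in both libraries, 4 of 14 were higher and 0 lower, with a median of 0.61, since IL6, CSF2, PTGS2 and CCL2 dropped out. Under that filter 4.87% of all rows were higher and 5.74% lower. IL6, an inflammatory cytokine, had 7.43 FPKM in AS STRAP KO and 0.684 FPKM in AS WT (log2 ratio 3.44). The IL6 value in AS WT is an estimated 6.09 to 23.8 reads, with a counting interval of 2.26 to 4.95. CSF2, which encodes the growth factor GM-CSF, had 5.37 FPKM in AS STRAP KO and 0.844 FPKM in AS WT. The latter is an estimated 13 reads, with a counting interval of 1.82 to 3.64. The cytokine gene IL32 had 12.0 FPKM in AS STRAP KO and 1.93 FPKM in AS WT, the latter an estimated 21.4 to 50.5 reads. In the opposite direction, CCL2, a monocyte chemokine, had 0.347 FPKM in AS STRAP KO and 13.5 FPKM in AS WT. The log2 ratio of CCL2 was -5.28 on an estimated 5.02 to 8.71 reads in AS STRAP KO. CXCL8 and VCAM1, which are also known targets, had log2 ratios of -0.13 and -0.14. Of the 14 targets that did not pass, TNF, LTB and TAP1 were listed at 0 in both libraries in each of their 8 rows, which is not read as absence.

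**Figure D5:**
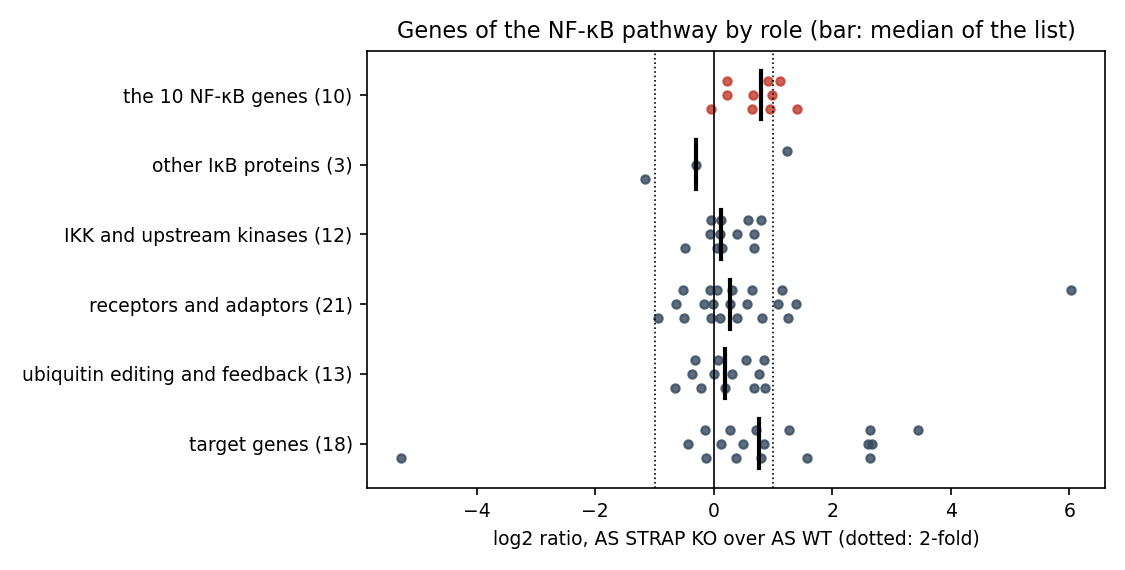
Log2 ratio (AS STRAP KO over AS WT) of expressed genes of the pathway by role, 1 point per gene, with the number of genes in parentheses. Black bars give the medians, 0.79 for the 10 NF-κB genes (red) and 0.76 for the further target genes, where the point at -5.28 is CCL2.

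Among expressed genes with a RefSeq window, those with and without a κB match in it had nearly equal median ratios. Rows of several symbols and genes without a window were left out. The shares in this paragraph are thus not those of all 13527 rows. Leaving the 10 genes out, 772 expressed genes with the consensus had a median log2 ratio of 0.04, and so did 7806 without it. At least 2-fold higher were 8.55% of those with the consensus and 6.76% of those without it. Of the same genes 8.16% with the consensus and 6.79% without it were at least 2-fold lower. For the core, 6.93% of 101 genes with it and 6.92% of 8477 without it were at least 2-fold higher.

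STRAP itself had 179 FPKM in AS STRAP KO and 244 FPKM in AS WT, a log2 ratio of -0.45, a level that does not measure the edit. For the edit, the paper reports a sequence gap at the guide position and no detectable STRAP protein on immunoblots of AS STRAP KO cells. Of the cell type markers, the neuroblastoma gene HAND2 had 228 FPKM in AS STRAP KO and 227 FPKM in AS WT, while TH and CHGA were listed at 0 in both. The leukocyte genes PTPRC and CD3E were also listed at 0 in both libraries, and CD14 had 1.18 FPKM in AS STRAP KO and 1.16 FPKM in AS WT. The 4 endothelial markers summed to 0.882 FPKM in AS STRAP KO and 0.409 FPKM in AS WT, and the 4 epithelial markers to 0.851 FPKM in AS STRAP KO and 0.240 FPKM in AS WT. Of the 10 adrenergic markers, 7 were expressed, 3 of them 2-fold or more below AS WT in AS STRAP KO, and of 6 mesenchymal markers 1 lay beyond 2-fold in each direction. Whether these have a part in the NF-κB values was not tested.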

How the data were processed

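RNA of both cell populations was sequenced by the authors from directional libraries (75 bp, single-end), aligned with STAR to GRCh38 with GENCODE annotation, and quantified with Cufflinks 2.2.1. The submitters' processing notes also name bcl2fastq 2.18.0.12, STAR 2.7.6 and Cuffdiff. As deposited by the authors, values are in FPKM, 1 column per condition. The methods state biological replicates for the experiments in general but do not name those of the RNA-seq, and the sources used here do not say whether several entered a column. From these FPKM the plain ratio was computed with no pseudocount. Where a symbol had several rows, the row of highest summed FPKM was used, and 1734 rows hold several symbols. The members and lists were chosen with earlier results of these data known. The genes named are the members, STRAP and, of each list, up to 4 with the largest absolute ratio among those at least 2-fold apart. A few others were named after their values were seen, among them IKBKB, TAB2, MAP3K14, TNFRSF1A, CXCL8 and VCAM1. The deposited FPKM gave the depth from 319 values in AS STRAP KO and 367 in AS WT between 1 and 5 reads, of which 94.0% and 95.1% lay within 0.1 of a whole read, for transcripts of at least 1500 bases shortened by a fragment length of 200. Positions are from GENCODE on GRCh38. The ratio and motif steps were tested on simulated data. Python 3.11.15, pandas 2.3.3, SciPy 1.17.1 and matplotlib 3.10.9 were used. Alternatives were 10 set at the start and 3 added after seeing the data.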

Additional observations from a re-analysis of the deposited data

How the results depend on the processing

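Scaling shifted all log2 ratios by 0.11 (common total), 0.16 (common total without the row that holds MT-ND1 with MT-ND2), 0.01 and -0.10 (upper quartile of expressed rows, and of all rows above 0) and -0.02 (median centring). RELA turned to 0.05 and 0.11 under the first and second. Members at least 2-fold higher numbered 5 under each of these, and 7 at a 1.5-fold threshold. Of all rows, 11% were higher under the first scaling and 17.6% at the 1.5-fold threshold. The second scaling gave 1756 of 14516 rows higher (12.1%) and 1409 lower (9.71%), against 1124 (8.31%) and 1434 (10.6%) as deposited. It also put 2 ubiquitin editing genes at least 2-fold higher. The median of the members was 0.70 with the upper quartile of all rows above 0, under which 3 receptors and adaptors were higher and 1 lower. Under that scaling 7.25% of all rows were higher and 11.9% lower. Receptors and adaptors at least 2-fold higher numbered 2 with 1 FPKM added, 3 with at least 1 FPKM in both libraries and 1 with at least 5 FPKM in 1 library. Of all rows, 5.32%, 4.87% and 5.72% were higher under these settings in turn. Without a filter 1 receptor or adaptor was lower, along with 2 targets, where 15.4% of the rows above 0 in both libraries were lower. Where 1 FPKM was required of both libraries, 4 targets were higher and 0 lower, since IL6, CSF2 and PTGS2 were under 1 FPKM in AS WT and CCL2 in AS STRAP KO. With 1 FPKM added 719 rows (5.32%) were higher and 866 (6.4%) lower. With at least 1 FPKM in both libraries 577 of 11846 rows (4.87%) were higher and 680 (5.74%) lower. At 1.5-fold, 2 receptors and adaptors were lower, 3 IKK and upstream kinases higher, and 4 ubiquitin editing genes higher and 1 lower. Of all rows, 17.6% were higher and 19.2% lower at that threshold. All other counts and medians, 150 in number, were classed as unchanged. These counts stayed within 1.5 times their value as deposited. These medians lay between the median of the members' lower interval ends and the median of their upper ends. The common total without the mitochondrial row, the upper quartile of all rows above 0 and the 1.5-fold threshold were chosen after seeing the data. No paired analysis was possible because each condition has 1 library.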

Other observations

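Beside IL6, CSF2 and IL32, 4 further target genes were at least 2-fold higher. They were named after their values were seen, and the log2 ratios of C3 (2.63) and PTGS2 (2.61) were close to that of IL32 (2.64). C3, the central complement protein, had 217 FPKM in AS STRAP KO and 35.1 FPKM in AS WT, the highest level of the expressed targets in AS STRAP KO. SOD2, the mitochondrial superoxide dismutase, had 79.4 FPKM in AS STRAP KO and 26.8 FPKM in AS WT. PTGS2, which encodes the prostaglandin-producing enzyme COX-2, had 4.24 FPKM in AS STRAP KO and 0.697 FPKM in AS WT, and CD83, a surface protein of activated immune cells, 10.6 FPKM in AS STRAP KO and 4.43 FPKM in AS WT.

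Of the 13 expressed feedback regulators, 0 were 2-fold higher and 0 lower, against 8.31% and 10.6% of all rows. At 1.5-fold, a threshold added after the values were seen, 4 were higher, against 17.6% of all rows, and 1 was lower, against 19.2% of all rows. The 4 higher were TNIP1, a ubiquitin-binding partner of A20, at 65.2 FPKM in AS STRAP KO and 35.8 FPKM in AS WT, ZC3H12A, an RNase that degrades cytokine mRNA, at 14.8 FPKM in AS STRAP KO and 8.29 FPKM in AS WT, N4BP1 (log2 ratio 0.76) and the deubiquitinase gene CYLD (0.68). TAX1BP1, an adaptor of A20, was the lower one, at 37.2 FPKM in AS STRAP KO and 58.5 FPKM in AS WT.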
